A study of Mus musculus with 8 samples.

Results

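A set of 9 genes used to recognise macrophages in mouse expression data was followed in 8 mixed co-cultures of spleen cells and colon cancer cells: Lyz2, Csf1r, Adgre1, Cd68, Cd14, Itgam, Mpeg1, Aif1 and Cx3cr1. These 9 members were chosen by symbol among 52636 gene IDs. All 9 were in the tables, on 10 gene IDs, because Itgam has a pair of IDs there. A gene was tested when it had at least 1 TPM (the deposited length-scaled share of transcripts, so that levels can be compared between genes) in at least 4 of the 8 libraries. Of the members, 7 met this and were among the 11433 genes tested. Csf1r and Cx3cr1 did not.

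The co-cultures joined C57BL/6 splenocytes with cancer cells at 1 cancer cell to 50 splenocytes for 5 days. The splenocytes came from mice with an Actin-GFP reporter. The cancer cells derived from colon cancer organoids that had metastasized to the liver, and were sorted by tdTomato and CD4 into trogocytic cells (4 libraries) and non-trogocytic cells (4 libraries), the latter serving as the control. Trogocytosis is the uptake of membrane fragments, with their proteins, from another cell. The splenocytes were of the same kind in both groups, and RNA was taken from the whole mixture. The labels do not state whether replicates came from separate animals or organoid lines, so the p-values describe variation among these 8 libraries, and that variation may be technical.

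Macrophages are resident or monocyte-derived phagocytes that engulf dying cells, debris and antibody-coated targets. The spleen holds several kinds, among them the red pulp macrophages that clear old erythrocytes. Their survival depends on signals through the CSF1 receptor, and the ETS factor PU.1, the product of Spi1, drives much of the myeloid gene set. Several members are shared with other cells: Lyz2 and Itgam are also transcribed in neutrophils, Cd68 and Aif1 in several phagocytes, and Ptprc, the gene for the leukocyte antigen CD45, in nearly all leukocytes.

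Lyz2, Cd68, Aif1, Itgam and Mpeg1 had similar patterns over the libraries, and their upstream sequences are shown as the place to look for a shared short motif of the kind bound by PU.1. The sequences are from RefSeq (GRCm38.p6), 5′ to 3′ on the strand of the gene, and end at the RefSeq start site. For Lyz2 and Aif1, whose gene models in the files start further upstream, the last 49 and 16 bases of the window of 250 lie inside that model and are left out. Capitals mark GAGGAA or its reverse complement TTCCTC. The regions are chr10:117282322-117282522 (minus strand) for Lyz2, chr11:69666171-69666420 (minus) for Cd68, chr17:35176069-35176302 (minus) for Aif1, chr7:128062390-128062639 (plus) for Itgam and chr19:12460520-12460769 (plus) for Mpeg1.
Lyz2: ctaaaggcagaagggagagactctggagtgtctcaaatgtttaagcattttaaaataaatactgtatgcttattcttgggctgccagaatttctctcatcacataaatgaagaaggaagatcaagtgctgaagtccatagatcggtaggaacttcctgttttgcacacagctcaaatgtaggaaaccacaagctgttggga
Cd68: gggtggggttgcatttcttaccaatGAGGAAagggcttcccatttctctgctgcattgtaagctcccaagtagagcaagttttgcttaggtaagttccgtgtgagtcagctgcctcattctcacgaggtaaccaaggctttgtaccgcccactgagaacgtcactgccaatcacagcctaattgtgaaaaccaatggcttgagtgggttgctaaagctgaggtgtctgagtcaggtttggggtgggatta
Aif1: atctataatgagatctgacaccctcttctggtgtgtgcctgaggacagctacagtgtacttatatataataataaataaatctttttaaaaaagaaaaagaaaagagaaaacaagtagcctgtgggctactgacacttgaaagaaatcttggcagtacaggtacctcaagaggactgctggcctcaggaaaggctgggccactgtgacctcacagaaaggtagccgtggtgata
Itgam: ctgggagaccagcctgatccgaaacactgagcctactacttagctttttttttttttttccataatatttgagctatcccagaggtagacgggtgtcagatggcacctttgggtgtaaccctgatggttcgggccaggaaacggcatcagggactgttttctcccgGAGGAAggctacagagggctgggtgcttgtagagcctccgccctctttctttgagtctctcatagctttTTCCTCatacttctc
Mpeg1: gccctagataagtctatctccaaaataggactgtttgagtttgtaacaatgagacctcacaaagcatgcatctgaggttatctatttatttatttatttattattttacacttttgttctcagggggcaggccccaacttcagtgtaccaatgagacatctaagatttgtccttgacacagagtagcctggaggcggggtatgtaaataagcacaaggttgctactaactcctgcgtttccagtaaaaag

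Itgam held 2 matches to the hexamer and Cd68 1, while Lyz2 and Mpeg1 held none. The full window of Aif1 held 1 match, which lies in the bases left out and so inside the gene model of the files. The promoter table had entries for 6 of the 9 members, and the full windows of 3 of these 6 (Itgam, Cd68 and Aif1) held a match. Of all 32851 promoters in the table, 23.25% held one in a window of 250 bases. A match is a description of the letters and not a binding site.

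The members spanned a wide range of levels, and most of their RNA came from 2 genes. Lyz2, which encodes the bacteriolytic lysozyme M, averaged 4376 ± 3524 TPM (SD, n = 8) over all libraries. Cd68, a glycoprotein of late endosomes and lysosomes, averaged 868 ± 548 TPM. Lyz2 exceeded Cd68 in 8 of 8 libraries, and Cd68 exceeded Aif1 (54.5 ± 42.9 TPM) in 8 of 8 (exact sign-flip permutation p = 0.00781 each, the smallest 8 libraries allow). Aif1 was above Cd14 (26.2 ± 14.6 TPM) in 7 of 8 libraries. Cd14 and Mpeg1 (23.2 ± 15.6 TPM) could not be ordered, with Cd14 higher in 4 of 8 libraries (exact permutation p = 0.516). Mpeg1 was above Adgre1 (9.0 ± 8.90 TPM) in 8 of 8. Adgre1 exceeded Itgam (3.14 ± 3.12 TPM) in 7 of 8, and Itgam exceeded Csf1r (1.40 ± 1.54 TPM) in 6 of 8 (exact permutation p = 0.0547). At the low end, Csf1r was above Cx3cr1 in 8 of 8 libraries.

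The depth behind these levels differed as widely. Libraries held 1.39 to 1.84 Gb of aligned bases. From the coverage and the longest annotated transcript, the median library held an estimated 13613 read pairs for Lyz2, 3368 for Cd68, 304 for Mpeg1, 137 for Cd14 and 112 for Aif1. It held 68.0 for Adgre1, 39.7 for Itgam, 11.9 for Csf1r and 0 for Cx3cr1. Ptprc had 2816. Statements on Itgam, Csf1r and Cx3cr1 are therefore limited by counting as well as by the spread between libraries.

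Among the lysosomal and effector genes, Lyz2 (ENSMUSG00000069516.8, chromosome 10, 117277331 to 117282321, minus strand, GRCm38 as in the files, 4 exons) was the most abundant member. In non-trogocytic replicates 1 to 4 it stood at 12057, 4919.6, 6060.1 and 2636 TPM, and in trogocytic replicates 1 to 4 at 3846, 1315, 1175 and 2999 TPM. Non-trogocytic replicate 1 held 10.3 times the Lyz2 level of trogocytic replicate 3. The groups overlapped, since non-trogocytic replicate 4 lay below 2 trogocytic libraries. The log2 difference, trogocytic minus non-trogocytic on the log2(TPM + 1) scale, was −1.43 ± 0.48 (SE, limma adjusted p = 0.950, unadjusted 0.0129).

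Lyz2 has a close neighbour, Lyz1 (chromosome 10, 117287797 to 117292868), the lysozyme of intestinal Paneth cells. Their transcripts were identical at 96.0% of 1262 aligned bases, with a longest shared run of 118. Of the 1217 windows of 100 bases in the Lyz2 transcript, 24 also occurred in Lyz1, so some reads cannot be assigned to either gene. Lyz1 was listed at 0.905% to 1.78% of the Lyz2 level in each library. Its slope on Lyz2 passed the test (0.98 ± 0.13, SE, limma adjusted p = 0.0135), and shared reads may enter that slope, which was not tested.

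Cd68 (ENSMUSG00000018774.13, chromosome 11, 69664213 to 69666153, minus strand, 6 exons) ranged 6.54-fold over the libraries. Its levels were 2039, 764, 939 and 507 TPM in the non-trogocytic and 1111, 312, 401 and 869 TPM in the trogocytic libraries. The highest value was in the first replicate of each group, and the groups overlapped. The log2 difference was −0.65 ± 0.47 (SE, limma adjusted p = 0.9998).

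Mpeg1 (ENSMUSG00000046805.9, chromosome 19, 12460779 to 12465284, plus strand, 2 exons) encodes perforin-2, a pore-forming protein directed at engulfed bacteria. It stood at 54.9, 30.6, 22.7 and 11.5 TPM in the non-trogocytic and at 30.1, 13.3, 5.63 and 16.7 TPM in the trogocytic libraries. Aif1 (ENSMUSG00000024397.14, chromosome 17, 35170991 to 35176068, minus strand, 8 exons) encodes IBA1, a calcium-binding protein that bundles actin during phagocytosis. It stood at 152, 38.9, 62.0 and 32.0 TPM in the non-trogocytic and at 69.9, 17.4, 27.0 and 37.0 TPM in the trogocytic libraries. Both were highest in the first replicate of each group, and the groups overlapped for both. The log2 differences were −0.83 ± 0.56 for Mpeg1 and −0.80 ± 0.53 for Aif1 (SE, limma adjusted p = 0.9998 for each).

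Among the receptors, Cd14 (ENSMUSG00000051439.6), a coreceptor for bacterial lipopolysaccharide, had a pattern of its own. Its levels were 21.1, 26.5, 52.1 and 42.4 TPM in the non-trogocytic and 21.8, 12.6, 8.0 and 24.7 TPM in the trogocytic libraries. In contrast to the genes above, its lowest non-trogocytic value was in replicate 1. Trogocytic replicates 1 and 4 reached into the non-trogocytic range. The log2 difference was −1.07 ± 0.43 (SE, limma adjusted p = 0.9998, unadjusted 0.0307).

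Adgre1 (ENSMUSG00000004730.14, chromosome 17, 57358686 to 57483529, plus strand, 22 exons) encodes F4/80, the adhesion receptor used as a surface marker of mouse tissue macrophages. It stood at 14.7, 11.7, 3.20 and 6.25 TPM in non-trogocytic replicates 1 to 4. Trogocytic replicates 1 to 4 held 27.4, 2.18, 0 and 6.54 TPM. Its highest and its lowest value were thus both in the trogocytic group, and replicate 3 there was listed at 0 although its Cd68 level was 401 TPM. The log2 difference was −0.79 ± 0.92 (SE, limma adjusted p = 0.9998), and the group means on the linear scale were 8.96 ± 5.19 and 9.04 ± 12.6 TPM (SD, n = 4 each).

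Itgam (ENSMUSG00000030786.18, chromosome 7, 128062640 to 128118491, plus strand, 30 exons) encodes CD11b, the alpha chain of complement receptor CR3. It stood at 9.47, 3.56, 2.78 and 0.923 TPM in the non-trogocytic and at 5.67, 0.10, 1.68 and 0.919 TPM in the trogocytic libraries. The first replicate was the highest of each group, and the groups overlapped (log2 difference −0.80 ± 0.67, SE, limma adjusted p = 0.9998). A second ID with the same symbol, ENSMUSG00000108596.1, covers the same locus and stood at 0.303 TPM or less. Reads in exons that both models hold could be split between them, so the Itgam level is uncertain to that extent.

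Csf1r (ENSMUSG00000024621.15), the receptor for the macrophage growth factors CSF1 and IL-34, was low throughout. It stood at 4.88, 1.97, 0.727 and 1.79 TPM in the non-trogocytic and at 0.471, 0.175, 0.630 and 0.559 TPM in the trogocytic libraries. Of the members, Csf1r was the 1 gene whose groups did not overlap before scaling, with every trogocytic library below every non-trogocytic one (exact permutation p = 0.0286, two-sided, the smallest that 4 against 4 can give). Of all tested genes, 1.3% had that pattern, but Csf1r was not among those tested. No share was computed for genes under the filter. In a fit without the filter on low values, the log2 difference of Csf1r was −1.06 ± 0.43 (SE, limma adjusted p = 0.837). That it stood under the filter, at a median of 11.9 estimated read pairs, limits this result. Cx3cr1 (ENSMUSG00000052336.7, chromosome 9, 119901616 to 120069879, minus strand), the fractalkine receptor of patrolling monocytes and several tissue macrophages, was listed at 0 in 6 of 8 libraries. The exceptions were non-trogocytic replicates 2 and 4, at 0.0915 and 0.448 TPM. Its gene model overlaps Wdr48 on the other strand, at a mean of 20.3 TPM, and reads of such a pair can be told apart only where the counting uses strand.

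**Figure D1:**
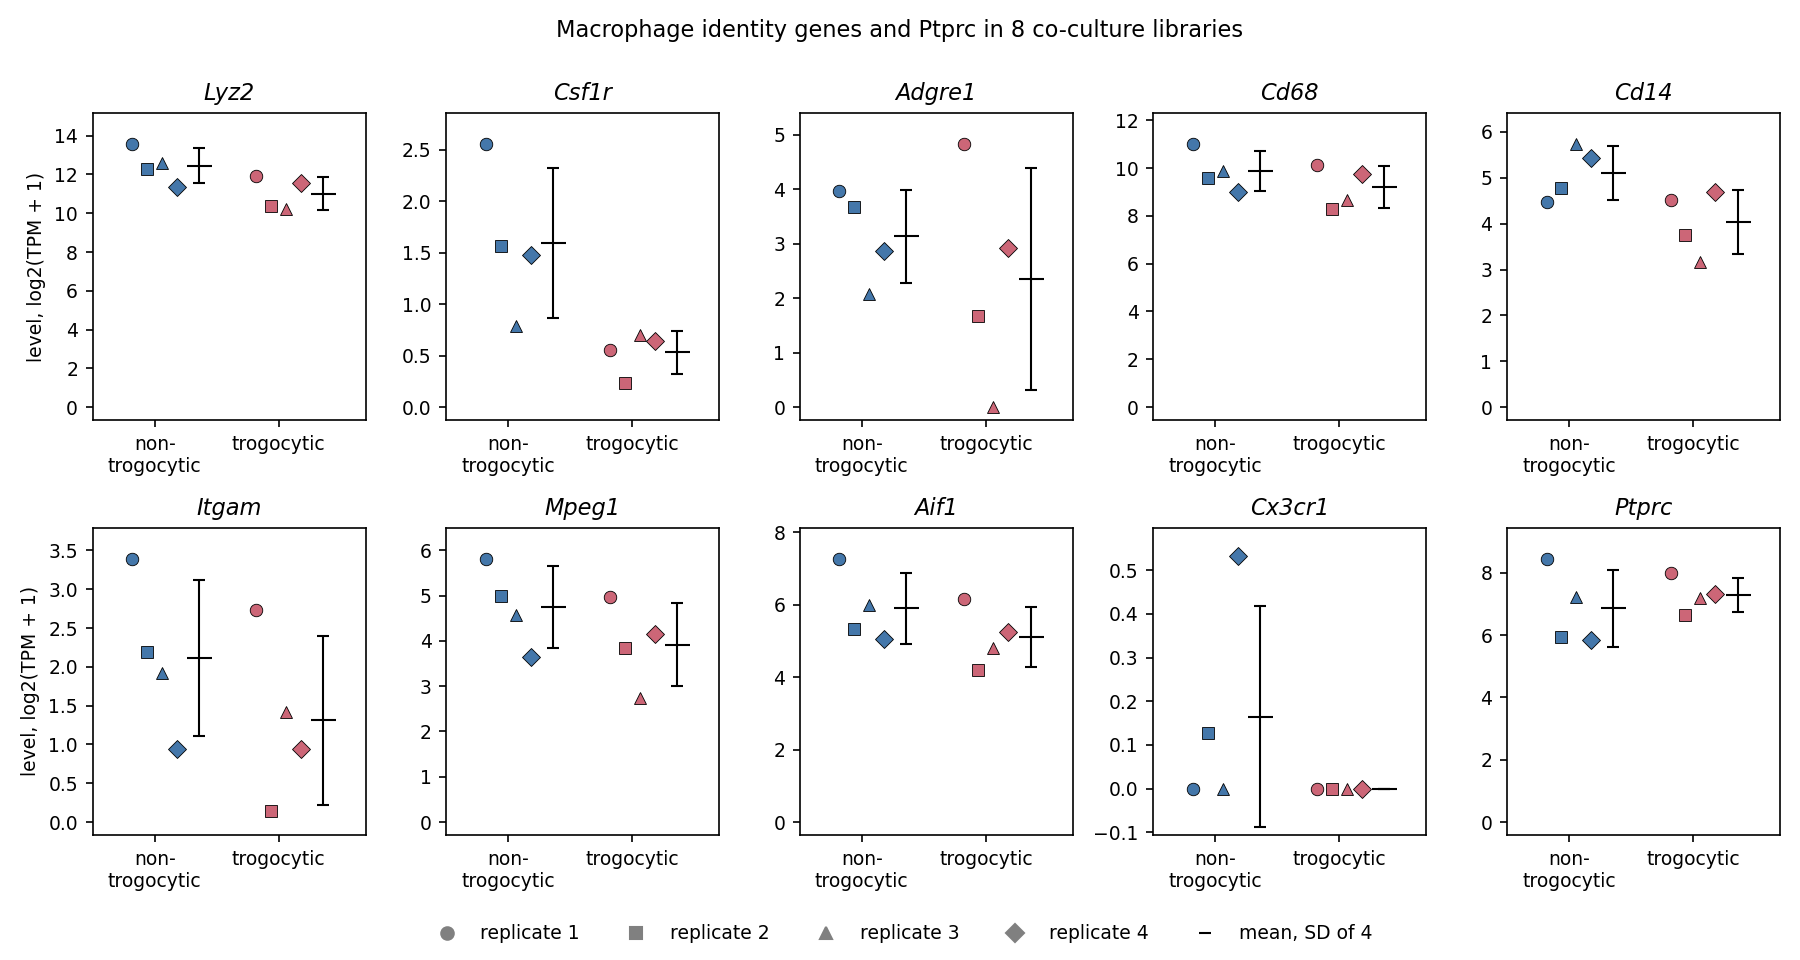
Levels of the 9 members and Ptprc, as log2(TPM + 1), in 4 non-trogocytic (blue) and 4 trogocytic (red) libraries. Each symbol is 1 library, its shape gives the replicate number, and the black bar gives the mean and SD of 4. Of the 9 members, Csf1r alone has groups that do not overlap. Csf1r was under the filter, and 1.3% of tested genes lie lower in every trogocytic library. Lyz2, Cd68, Mpeg1, Aif1, Itgam and Adgre1 are highest in the first replicate of each group, and Cd14 is not.

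The first comparison asked whether the members differed between the 2 kinds of co-culture. All 7 tested members had a lower mean log2 level with trogocytic cancer cells, with a median difference of −0.80, but 0 of 7 were called at a limma adjusted p below 0.05. The share called over all tested genes was 0.0525%, or 6 of 11433. At an unadjusted limma p below 0.05 stood 2 of 7 members, Lyz2 and Cd14, against 525 of all tested genes. The median difference over all tested genes was 0.01, and 49.3% of them had a difference below 0. The 7 members move together, so a shared sign is not 7 separate observations. For none of the 7 were all trogocytic libraries below all non-trogocytic ones, a pattern that 1.3% of tested genes had. In these bulk samples, fewer cells of a type and less RNA per cell cannot be told apart.

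The next question was which members vary with one another. All 28 pairs of the 8 members other than Cx3cr1 had a positive Pearson's r over the 8 libraries, from 0.17 to 0.96 with a median of 0.68. The 6 pairs among Lyz2, Cd68, Mpeg1 and Aif1 had an r of 0.81 to 0.96 and a Spearman's rho of 0.79 to 0.98. Removing the group means left them at 0.76 to 0.98, so the pattern was also present among libraries of the same group. With Itgam in the place of Mpeg1 the 6 pairs also ran from 0.81 to 0.96, and the 10 pairs of all 5 genes from 0.76 to 0.96. These sets were named after the correlations were seen.

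Cd68 and Aif1 were the closest pair (r = 0.96, exact permutation p = 0.000124; rho = 0.98, exact permutation p = 0.000397, 28 pairs computed). Without the 2 libraries of most extreme level, r was 0.89. Lyz2 correlated with Cd68 at 0.93, with Aif1 at 0.91 and with Mpeg1 at 0.91. Itgam had an r of 0.92 with Aif1 and 0.87 with Cd68. Without both first replicates, those 2 values were 0.78 and 0.67, and the 6 pairs of Lyz2, Cd68, Mpeg1 and Aif1 lay between 0.55 and 0.92.

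Cd14 stood apart at the other end, with r between 0.17 (Itgam) and 0.59 (Lyz2) against the other members. Removing the group means brought its r with Lyz2 to 0.21 and with Aif1 to 0.05. Without both first replicates, and with the group means left in, its r with Lyz2 was 0.86 and with Aif1 0.75. With Csf1r it was 0.51 and with Itgam 0.36. The weaker r over all 8 libraries thus depended in part on the first replicates. In these, Lyz2, Cd68 and Aif1 were at their group's highest level and Cd14 was not. The relation within groups was not tested without them. Adgre1 was closest to Mpeg1 (r = 0.83, rho = 0.81) and Csf1r to Lyz2 (r = 0.73). The relation of Csf1r and Lyz2 did not hold without its 2 most extreme libraries, where r was 0.26.

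**Figure D2:**
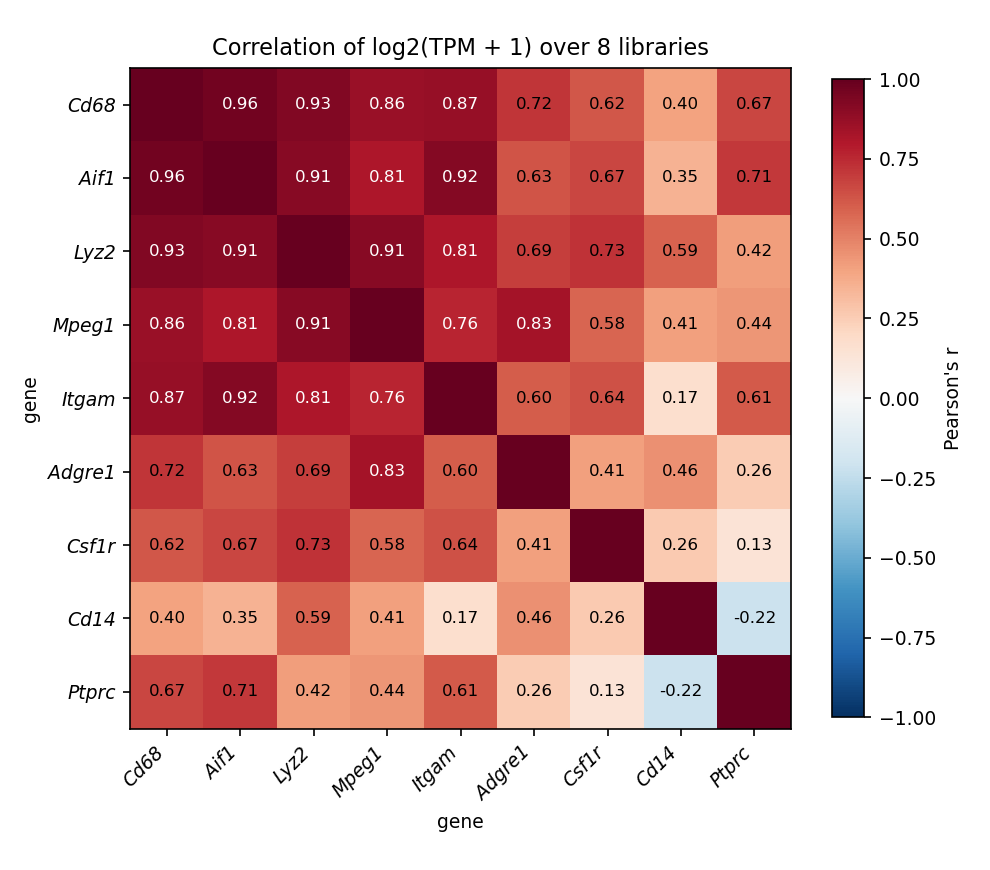
Pearson's r of log2(TPM + 1) over the 8 libraries for every pair among 8 members and Ptprc, with genes on both axes and colour and number giving r. Cd68, Aif1, Lyz2 and Mpeg1 form a block at 0.81 to 0.96. Cd14 and Ptprc have the palest rows, and their r with each other is −0.22.

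Slopes on each member were then fitted for every tested gene, which sets the members beside all genes. On Cd68, 2 of 6 other tested members were called, Aif1 (slope 1.05 ± 0.15, SE, limma adjusted p = 0.0169) and Lyz2 (1.19 ± 0.16, limma adjusted p = 0.0133), against 0.56% of all genes. On Aif1, Cd68 and Lyz2 were called, against 0.28% of all genes. On Lyz2, Cd68 was called, against 0.254%, and on Mpeg1, Lyz2 was called, against 0.122%. No member was called on Csf1r, Adgre1, Cd14 or Itgam, where 0% of all genes were called by limma and 549, 1270, 431 and 1145 genes had an unadjusted p below 0.05. The called slopes numbered 6 in all, with each direction of a pair counted. Cd68 with Aif1 and Cd68 with Lyz2 thus entered in both directions. The number called depended on single libraries. It was 0 without non-trogocytic replicate 1, and leaving out the third replicate of that group gave 3. It was 3 when trogocytic replicate 2 was left out and 2 when trogocytic replicate 3 was. The slopes themselves stayed positive in each of these fits.

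The genes nearest to each tested member over the 8 libraries were ranked by Pearson's r. Among genes with a mean of at least 5 TPM, the 3 closest to Lyz2 were Ctss, the lysosomal protease cathepsin S (r = 0.99), Clec7a, the beta-glucan receptor dectin-1 (0.98), and Pla2g7 (0.97). Closest to Cd68 were Bhlhe41 (0.98), the scavenger receptor gene Cd36 (0.98) and Ttyh2 (0.98). Aif1 was matched by Fcer1g, the shared gamma chain of Fc receptors, and by Tmem50a and Idh1 (0.98 each). Mpeg1 was matched by Itm2b, Creg1 and the adaptor gene Tyrobp (0.98 each). Closest to Adgre1 were P2rx4, an ATP-gated channel (0.97), Rrbp1 and Ndfip1. Closest to Itgam were Trib2 (0.97), 4930581F22Rik and 1500002C15Rik. Closest to Cd14 were Nudt3 (0.98), the deacetylase gene Sirt1 (0.95) and Rap2c (0.92). No member was among the 3 closest genes of another. These are the extremes of 7905 or 7906 genes over 8 libraries and are given as a description.

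The members were next set against Ptprc, as a measure of how much leukocyte RNA a library held. Ptprc (ENSMUSG00000026395.16, chromosome 1, 138062861 to 138175708, minus strand) stood at 345, 60.1, 149 and 55.8 TPM in the non-trogocytic and at 253, 98.4, 146 and 158 TPM in the trogocytic libraries. Its first replicates were the highest of both groups, and non-trogocytic replicates 2 and 4 were the lowest of all. The groups did not differ beyond their spread (log2 difference 0.43 ± 0.67, SE, exact permutation p = 0.543). Genes called on Ptprc by limma made up 0.805% of all genes, or 92, and 0 of 7 members were among them. At an unadjusted limma p below 0.05 stood 2 of 7 members, Aif1 and Cd68, against 1761 genes in all.

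Aif1 and Cd68 came nearest to following Ptprc. For Aif1, r was 0.71 (exact permutation p = 0.0489) and rho 0.69 (exact permutation p = 0.0694), with a slope of 0.73 ± 0.25 (SE, limma adjusted p = 0.206). For Cd68, r was 0.67 (exact permutation p = 0.0676) and rho 0.79 (exact permutation p = 0.0279), with a slope of 0.63 ± 0.22 (limma adjusted p = 0.217). Itgam followed at r = 0.61 and rho = 0.52, Mpeg1 at 0.44 and 0.52, and Lyz2 at 0.42 and 0.50. Adgre1 (0.26 and 0.50), Csf1r (0.13 and −0.05) and Cd14 (−0.22 and −0.26) lay lowest. The exact permutation p for r was 0.108 or more for the 6 members after Cd68, and 8 such relations were computed. Over all tested genes the median r with Ptprc was −0.13, and 41.4% of genes had an r above 0.

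2 features of the libraries bear on these values. First, the groups lay on separate lines for several members. With the group means removed, r with Ptprc was 0.95 for Aif1, 0.87 for Cd68, 0.84 for Lyz2, 0.80 for Itgam and 0.65 for Mpeg1. It was 0.51 for Csf1r, 0.35 for Adgre1 and −0.06 for Cd14. With group as a term, Aif1 was called on Ptprc (slope 0.90 ± 0.15, SE, limma adjusted p = 0.0335) and Cd68 was not (0.78 ± 0.16, limma adjusted p = 0.0585). In that fit 1 of 7 members was called, against 103 of 11432 genes in all. Second, r over all libraries, with the group means left in, depended on the first replicates. Without both of them it was 0.17 for Aif1, 0.18 for Cd68, −0.14 for Lyz2 and −0.05 for Itgam. For Mpeg1 it was −0.26, for Cd14 −0.27, for Adgre1 −0.56 and for Csf1r −0.74. These values mix the separate lines of the groups with the relation within groups. Whether the relation within groups depends on the first replicates was not tested. Without non-trogocytic replicates 2 and 4, the libraries with Ptprc farthest from the median, r ran from 0.22 for Cd14 to 0.95 for Itgam.

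**Figure D3:**
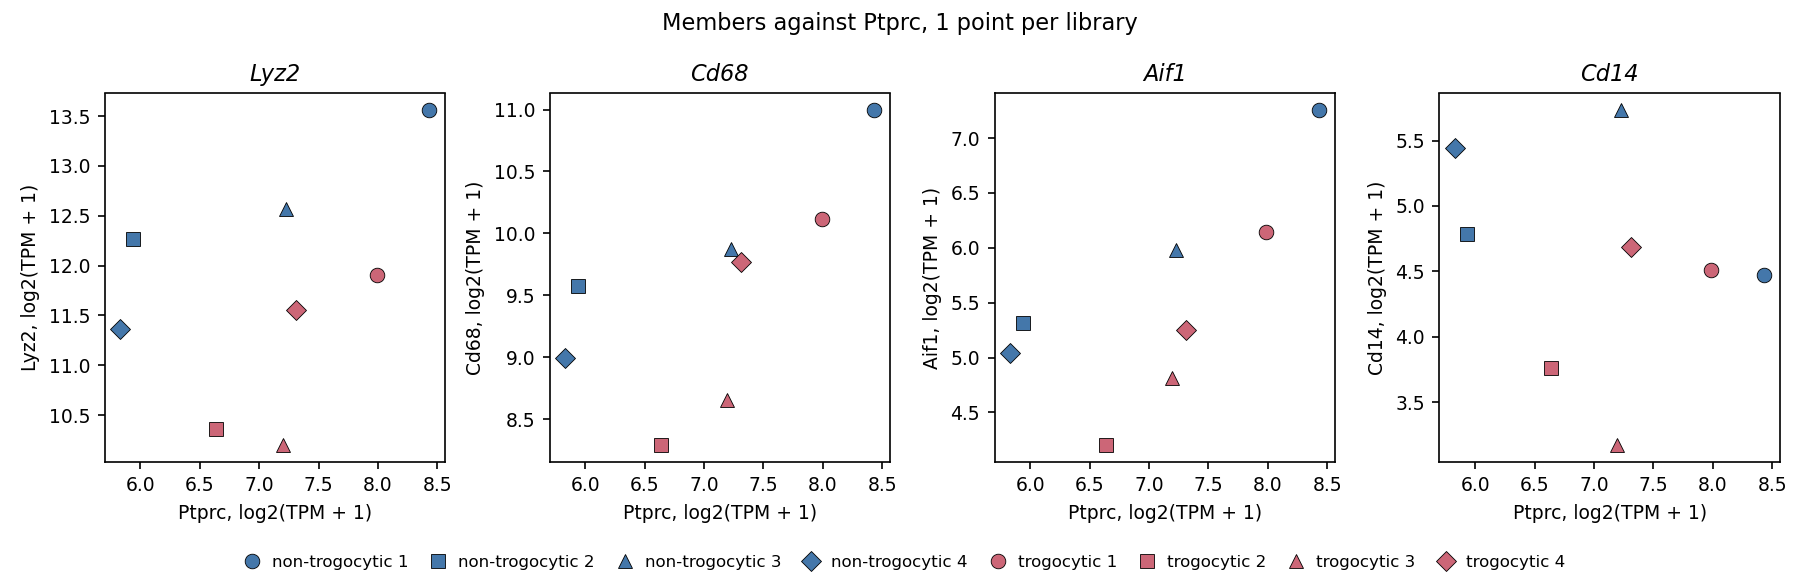
Levels of Lyz2, Cd68, Aif1 and Cd14 against Ptprc, both as log2(TPM + 1), with 1 symbol per library (blue non-trogocytic, red trogocytic, shape by replicate number). For Lyz2, Cd68 and Aif1 the trogocytic libraries lie below the non-trogocytic ones at a like Ptprc level, and the first replicates are at the upper right. Cd14 shows no rise with Ptprc (r = −0.22).

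Some genes of other leukocytes passed on Ptprc in the same fit. Of 9 other pan-leukocyte genes, 3 were called: Cd53 (slope 0.77 ± 0.13, SE, limma adjusted p = 0.0262), Arhgdib (limma adjusted p = 0.0307) and Cd52 (0.0417). Of 10 T cell genes 2 were called, Cd3d (slope 1.27 ± 0.20, limma adjusted p = 0.0259) and Cd2, and of 6 tested B cell genes 1, Cd79b. Of 2 tested natural killer cell genes 1 was called, Nkg7, a granule gene of cytotoxic lymphocytes. By limma, 0 of 6 tested neutrophil genes and 0 of 3 tested dendritic cell genes were called, with 4 and 1 at an unadjusted p below 0.05. Over all tested genes, 15.4% had an unadjusted p below 0.05 in this fit. Limma also called 5 of 9 mitochondrially encoded genes, and Cldn7, an epithelial tight junction gene, in the opposite direction (slope −0.72 ± 0.14, limma adjusted p = 0.0481). Whether the members' slopes differ from these was not tested. These calls were lost as well without single libraries: the count over all genes was 0 when non-trogocytic replicate 1, non-trogocytic replicate 4 or trogocytic replicate 1 was left out. It was between 34 (trogocytic replicate 2 left out) and 113 (trogocytic replicate 3 left out) for the other 5 libraries.

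The mean log2 level of the 9 other pan-leukocyte genes was used as a second reference. Against it, r was 0.86 for Cd68, 0.85 for Mpeg1, 0.76 for Adgre1, 0.74 for Aif1 and 0.72 for Lyz2, and 0.17 for Cd14. Ptprc itself had an r of 0.69 with it, so Ptprc and the remaining pan-leukocyte genes are not interchangeable as a reference in these libraries. All 8 members had a higher r with that mean than with Ptprc, and whether these correlations differ was not tested. Without its 2 most extreme libraries, r fell to 0.38 for Lyz2.

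Ptprc was then taken as the reference within each library. The log2 level of a member minus that of Ptprc did not overlap between the groups for 4 of 7 tested members, each lower with trogocytic cancer cells, a pattern that 1.13% of all tested genes had. For Lyz2 the values were 5.12, 6.33, 5.34 and 5.54 in the non-trogocytic and 3.92, 3.73, 3.00 and 4.24 in the trogocytic libraries. For Aif1 they were −1.18, −0.62, −1.25 and −0.78 against −1.84, −2.43, −2.39 and −2.06. For both genes every non-trogocytic value lay above every trogocytic one.

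The group differences on this scale were −1.86 ± 0.37 for Lyz2, −1.22 ± 0.21 for Aif1, −1.08 ± 0.34 for Cd68 and −1.26 ± 0.55 for Mpeg1 (SE; exact permutation p = 0.0286 each, two-sided, the smallest that 4 against 4 can give). Part of each difference is the higher mean of Ptprc itself: scaling to Ptprc moved the median of all tested genes from 0.01 to −0.42. Less that shift, the differences were −1.44 for Lyz2, −0.80 for Aif1, −0.66 for Cd68 and −0.84 for Mpeg1. Limma on the scaled values called 0 genes, with 212 at an unadjusted p below 0.05. Itgam (−1.23 ± 0.45, exact permutation p = 0.0571), Csf1r (−1.49 ± 0.58, 0.0571), Cd14 (−1.50 ± 0.84, 0.114) and Adgre1 (−1.22 ± 1.07, 0.314) overlapped. Csf1r thus lost the separation of its unscaled levels (exact permutation p = 0.0286 before scaling), and the exact permutation p of Cd14 was 0.0857 before scaling. Without non-trogocytic replicate 1, Cd14 no longer overlapped, with a difference of −2.24 and an exact permutation p of 0.0286.

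**Figure D4:**
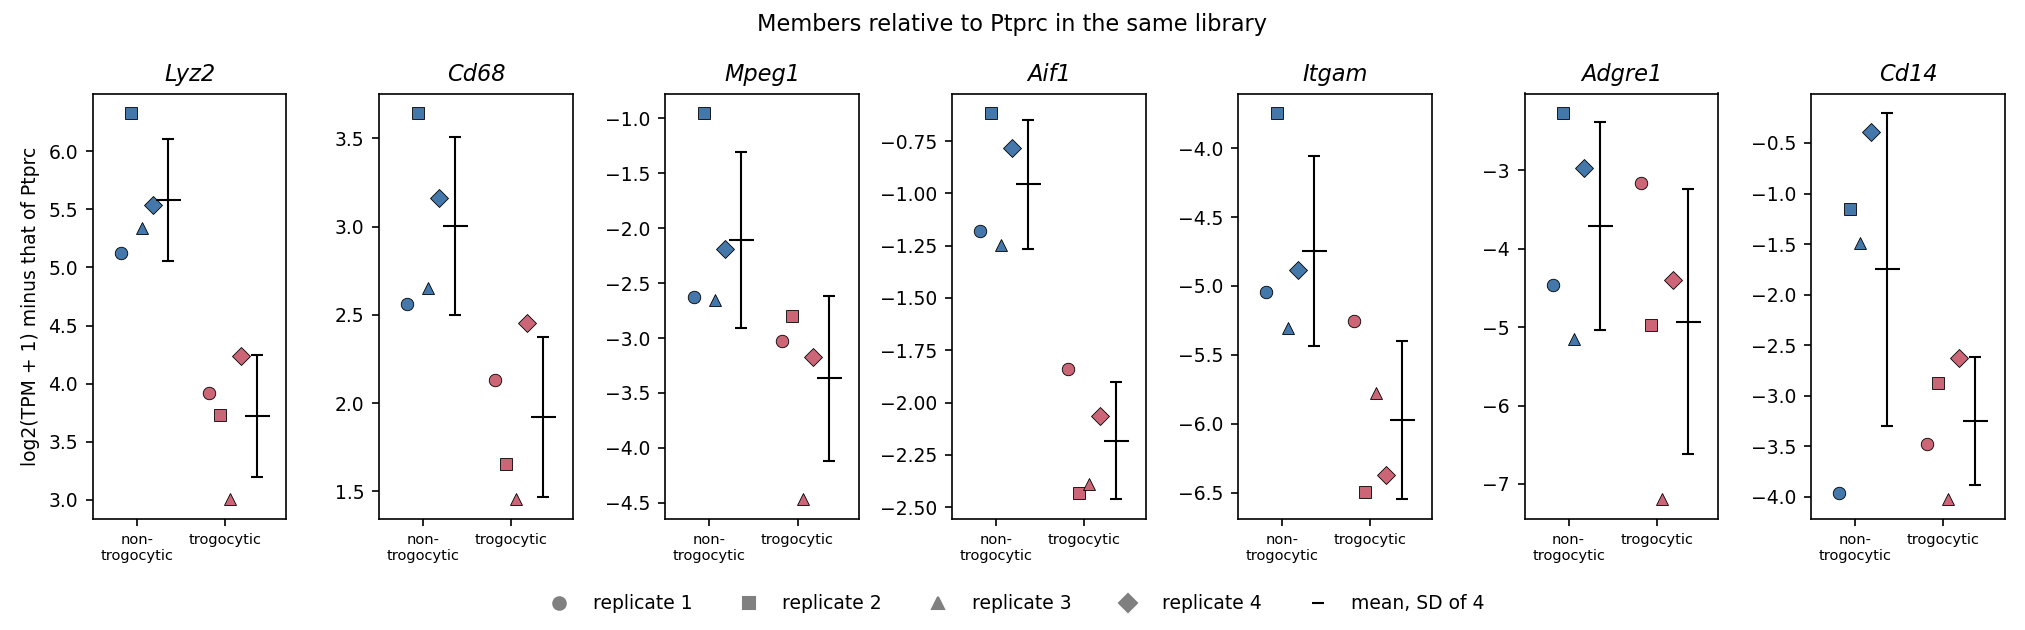
Level of the 7 tested members relative to Ptprc in the same library, as the difference of log2(TPM + 1) values, in non-trogocytic (blue) and trogocytic (red) libraries, with the mean and SD of 4. Lyz2, Cd68, Mpeg1 and Aif1 do not overlap between the groups. Itgam, Adgre1 and Cd14 do.

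Among these 4, Lyz2 and Aif1 kept an exact permutation p of 0.0286 when any 1 library was left out. For Cd68 it was 0.0571 when any 1 non-trogocytic library was left out, or trogocytic replicate 2 or 3. For Mpeg1 it was 0.0571 when non-trogocytic replicate 2 or 4 was left out and 0.114 when trogocytic replicate 3 was. Groups that do not overlap stay apart when any 1 library is left out, so all 4 genes remained separated each time. These p-values therefore cannot test whether the separation depends on single libraries. With the other 9 pan-leukocyte genes as the reference, Lyz2 (−1.41 ± 0.15) and Mpeg1 (−0.81 ± 0.21) still did not overlap (exact permutation p = 0.0286 each). Under that reference Cd68 (−0.63 ± 0.22, exact permutation p = 0.0571) and Aif1 (−0.78 ± 0.36, 0.0857) did.

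Group was also fitted with Ptprc as a covariate over all genes. In that fit 0 of 7 members were called, against 0.0525% of all genes (6 of 11432), and 5 of 7 members had an unadjusted limma p below 0.05, against 821 genes in all. Lyz2 had a difference of −1.76 ± 0.29 (SE, limma adjusted p = 0.121) and the 12th smallest p of all genes. Aif1 (−1.18 ± 0.26) and Cd68 (−0.99 ± 0.27) followed with limma adjusted p-values of 0.251 and 0.472. With the other pan-leukocyte genes as the covariate, 9 of 11424 genes were called, and 1 of 7 members was among them. That member was Lyz2 (−1.41 ± 0.14, limma adjusted p = 0.00495).

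Genes known to work with the members were read from a list of 18 ligands, partner chains and relatives. Of these, 11 were tested and 9 of the 11 had a difference below 0, with a median of −0.64 and 0 called between groups by limma (1 at an unadjusted p below 0.05). The shares over all tested genes were 49.3% below 0 and 4.59% at an unadjusted p below 0.05. The ligand genes of the CSF1 receptor were scarcely present: Csf1 reached 1.92 TPM in trogocytic replicate 2 and was below 1 TPM in the other 7 libraries, and Il34 was listed at 0 in 7 of 8. Itgb2, the beta chain that pairs with CD11b, had an r of 0.67 with Cd68 and stood between 2.63 and 47.0 TPM. The lipopolysaccharide receptor genes Ly96 and Tlr4, whose products act with CD14, had an r of −0.04 and −0.18 with Lyz2. Their r with Cd14, and that of Itgb2 with Itgam, is not given here. Csf2rb, the shared beta chain of the GM-CSF receptor, had a mean of 24.0 ± 16.0 TPM in non-trogocytic and 9.69 ± 6.2 TPM in trogocytic libraries (SD, n = 4 each, limma adjusted p = 0.9998).

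Of 14 myeloid transcription factors, 13 were tested, and limma called 0 between groups (0 at an unadjusted p below 0.05). A difference below 0 was found for 7 of the 13, near the 49.3% of all tested genes. Spi1 stood at 24.4, 12.6, 41.9 and 3.19 TPM in the non-trogocytic and at 25.0, 8.32, 8.14 and 9.58 TPM in the trogocytic libraries. It had an r of 0.68 with Cd68 and 0.66 with Ptprc. Zeb2 was nearer to the members, with an r of 0.94 with Lyz2 and 0.91 with Cd68. Cebpa, Klf4 and Maf had an r of 0.75, −0.42 and 0.04 with Lyz2. Pparg, picked for its low value, stood at −0.88 with Lyz2. None of these slopes was called (smallest limma adjusted p = 0.227 on Lyz2 and 0.17 on Cd68).

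A further list of 29 macrophage and monocyte genes was counted in the same way. Of its 26 tested genes, 24 had a difference below 0, with a median of −0.72, and limma called 0 between groups (3 at an unadjusted p below 0.05). Over all tested genes, 49.3% had a difference below 0 and 4.59% had an unadjusted p below 0.05. On Lyz2, 7 of the 26 were called, all with a positive slope, against 0.254% of all genes, and on Cd68 9 of 26, against 0.56%. Without non-trogocytic replicate 1 the calls over all genes fell from 29 to 1 on Lyz2 and from 64 to 0 on Cd68. By limma, 0 of 26 were called on Ptprc (8 at an unadjusted p below 0.05, against 15.4% of all tested genes). Ctss stood at 7883, 2690.1, 3764 and 1624 TPM in the non-trogocytic and at 2965, 821, 902 and 2026 TPM in the trogocytic libraries. Its slope was 0.95 ± 0.06 on Lyz2 (SE, limma adjusted p = 0.000141) and its r with Ptprc 0.53. Fcgr1, the high-affinity IgG receptor gene, had the smallest p of the list (mean 7.39 ± 5.21 against 0.681 ± 0.936 TPM, log2 difference −2.29 ± 0.54, limma adjusted p = 0.581).

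Of 11 genes of resident macrophages of spleen and liver, 7 were tested, 4 of which had a difference above 0, and limma called 0 between groups (0 at an unadjusted p below 0.05). Spic, the factor of red pulp macrophages, averaged 20.0 ± 21.8 TPM in non-trogocytic and 52.3 ± 40.0 TPM in trogocytic libraries (SD, n = 4 each, limma adjusted p = 0.9998). Its r was 0.84 with Ptprc and 0.20 with Lyz2. The other tested genes of the list were not uniform. Against Ptprc and Lyz2, r was 0.83 and 0.18 for Vcam1, 0.58 and 0.45 for Hmox1, and 0.51 and 0.29 for Cd5l. For Vsig4 it was 0.25 and 0.67, for Slc40a1 −0.28 and 0.26, and for Marco 0.14 and 0.29. Timd4 and Cd209b were listed at 0 in every library. Whether Spic and Lyz2 differ in their relation to Ptprc was not tested.

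Markers of other cells that hold member transcripts were read beside these results. The summed level of 11 neutrophil genes was 429 to 1083 TPM in non-trogocytic and 527 to 935 TPM in trogocytic libraries, with Csf3r at 0 in all, and 6 of the 11 were tested. Against their mean log2 level, r was 0.55 for Lyz2 and 0.77 for Cd68. Cd68 and Aif1 had an r of 0.89 and 0.82 with the mean of 9 B cell genes, of 0.54 and 0.43 with that of 10 T cell genes and of −0.32 and −0.45 with that of 10 epithelial genes. Cd14 lay between −0.19 and 0.28 with these 3 means. The correlations come from the same 8 libraries and are given as a description. Sums of 10 dendritic cell genes were 8.97 to 62.3 and 21.6 to 72.6 TPM, with Xcr1 and Clec9a at 0 in all. The T cell sum was 89.3 to 764 and 288 to 1256 TPM, and the epithelial sum 3377 to 9304 and 5419 to 7141 TPM. Of the 10 T cell genes, 10 had a difference between groups above 0, with a median of 0.91. So had 5 of 6 tested neutrophil, 4 of 6 tested B cell and 5 of 10 epithelial genes, against 5796 of all 11433. Limma called 0 of them, with 1 T cell gene at an unadjusted p below 0.05. The mitochondrially encoded sum was 2884 to 9550 and 5130 to 10284 TPM. The part of these in the members' values was not tested.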

How the data were processed

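Polyadenylated RNA of 8 mixed co-cultures was sequenced as paired reads of 100 bp, per the labels' protocols. Per the submitters' processing notes, HISAT2 and StringTie 1.3.3 were used, with DESeq version 2 and the builds GRCm38 and mm10 also listed. Neither the annotation used nor the strandedness of counting is given in the sources used here. Each deposited table gives a coverage, an FPKM and a TPM per gene of 1 library, per the file headers. The deposited coverage is an unscaled mean read depth, the deposited FPKM is scaled by the authors to aligned reads, and the deposited TPM to a fixed sum per library.

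TPM was summed over rows of 1 gene ID. Genes at 1 TPM or more in at least 4 libraries were tested with limma 3.58.1 (R 4.3.3) on log2(TPM + 1) with a mean-variance trend. Tests were two-sided, with p-values adjusted by Benjamini-Hochberg over all genes tested and a threshold of 0.05. The fits covered group, slope on Ptprc, slope on each member, and group with Ptprc. Differences on this scale understate the change of low genes. Exact permutation tests of single values were run over 70 splits or all pairings of 8 libraries (scipy 1.17.1). Depth was 6.93 M to 9.21 M read pairs per library if every pair aligned in full, as derived from coverage and FPKM. Coordinates are those of the files. Transcript lengths are from GENCODE M21, in which 49121 of the 52636 IDs had the same version, all at the same position. The fit was checked on simulated data.

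Genes named are the members and Ptprc, of each list the 2 with the smallest p between groups and the 2 with the highest mean, and the 3 genes most like each tested member. Of these a part is printed, and other genes are named where they were called or act with a member. The members and lists were chosen with earlier results of these data known. Alternatives covered the pseudocount, filter, unit, scaling, variance trend, reference, replicate block and each library left out. Leaving out both first replicates was added after the data had been seen.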

Additional observations from a re-analysis of the deposited data

How the results depend on the processing

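In the fit of group without a covariate, no member was called under any alternative, and all differences of tested members stayed below 0. The count of all genes called between groups fell from 6 to 1 without the filter and 1 without the mean-variance trend, to 0 scaled to Ptprc, 0 without the first replicates of both groups, and 0 to 3 with 1 library left out. The count called on Ptprc, 92 in the full set, was 61 at a pseudocount of 0.1, 41 with the other pan-leukocyte genes as reference, 0 without the first replicates, and 0 to 113 with 1 library left out. It was 122 with median-of-ratios scaling, 115 on FPKM and 103 with group as a term. The count between groups given Ptprc, 6 in the full set, was 1 without the first replicates and 1 to 5 with 1 library left out. It was 5 at a pseudocount of 0.1, and 9 with the other pan-leukocyte genes as the covariate, where Lyz2 was called. Of the members' slopes on each other, with each direction of a pair counted, 0 were called without the first replicates. With 1 library left out, 0 to 7 were. The causes were not tested.

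Slopes on Ptprc turned sign for 5 members. Without the first replicates they were −1.06 for Adgre1, −0.059 for Itgam, −0.30 for Mpeg1 and −0.20 for Lyz2. For Cd14 the slope was 0.19 on the other pan-leukocyte genes and ran from −0.27 to 0.025 with 1 library left out, the latter without non-trogocytic replicate 4.

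The labels give both groups the same replicate numbers, but the numbers were not taken to pair the libraries: the correlation of deviations from the group means was over 0.1 for 1 of 4 pairs (0.24, 0.01, 0.06 and −0.09), and 3 of 8 libraries correlated best with their own number. A replicate block left 0 genes called between groups, alone or with median-of-ratios scaling (0), and 0 on Ptprc. Under the block the slope on Ptprc was −0.57 for Adgre1, −0.40 for Itgam and −0.089 for Lyz2. Depth limits Itgam, Csf1r and Cx3cr1 most, at a median of 39.7, 11.9 and 0 estimated read pairs.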
